A study of Homo sapiens with 2 samples.

Results

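The genes of the eukaryotic translation initiation factors were measured in SAS, a cell line derived from a human squamous carcinoma of the tongue. Members were all probes whose annotation names exactly 1 gene with a symbol of EIF followed by a digit, without the EIF2AK kinases, the EIF2C genes, antisense RNAs and pseudogenes. That gave 67 probes of 48 genes, out of 31741 probes on the array and 18336 named genes. The Y-linked EIF1AY was left out, so 66 probes of 47 genes are described.

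Of the 2 groups, the shATMIN sample carried a short hairpin RNA against ATMIN, whose product is a zinc finger cofactor of the kinase ATM, and the other was a control labelled neo. The stated question was whether loss of ATMIN affects cancer progression. Per the labels, cells were lipofected with the hairpin plasmids, put under 3 µg/mL puromycin from 24 h on, and grown as resistant clones. The labels give this text for both samples. The sources used here do not give the construct and selection of the neo control or the number of clones in either sample. There was 1 sample per group, so no difference below has a replicate check or a p-value, and genes were counted by size. ATMIN itself had an intensity of 61.5 in the shATMIN sample and 105 in the neo control, a log2 difference of -0.76. A second ATMIN probe read 26.5 in the shATMIN sample and 51.5 in the neo control (-0.93), both below the dim level of 58.9. As the first probe also read close to that level in the shATMIN sample, the size of the ATMIN difference is poorly measured. All 7 markers of squamous epithelium were above the dim level of 58.9, but they differed between the samples, with KRT14 at 0.99, KRT6A at 1.00 and TP63 at -1.19 (-0.06 on a second probe), and KRT5, KRT17, EPCAM and CDH1 between -0.42 and 0.28. Of the other cell types' markers, PTPRC, CD3E and COL3A1 read below 15 in both samples. Above the dim level were CD68 (174 in the shATMIN sample and 272 in the neo control), COL1A1 (423 in shATMIN cells and 459 in neo control cells) and the 3 endothelial markers, whose summed intensity was 365 in the shATMIN sample and 436 in the neo control. The part of these in the results below was not tested.

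Initiation brings the small ribosomal subunit, the initiator tRNA and an mRNA together at the start codon. eIF2 carries the initiator tRNA and is recharged by eIF2B, the eIF1 proteins and eIF5 keep the search for the start codon accurate, eIF3 is the large scaffold on the small subunit, and the eIF4 proteins recognise and unwind the capped end of the mRNA. The cap-binding protein eIF4E is held back by the EIF4EBP proteins, which mTORC1 inactivates, and its availability is known to limit cap-dependent translation in many tumours.

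Most initiation factor genes were lower in the shATMIN sample, by small amounts. Of the 47 genes, 45 had a brightest probe whose mean log2(intensity + 1) reached 5.90, the 40th percentile of all probes, and were compared. Among these 39 were lower and 6 higher, with a median difference of -0.30 and quartiles of -0.51 and -0.15. Over all 12421 compared genes the median was -0.16 and 70.7% were lower, so a negative sign alone is the common case in these values. The eIF3 subunit gene EIF3B at -0.98 and EIF3L at 0.10 were the ends of the range. Bulk RNA of this kind cannot tell a lower level in each cell from fewer cells that express the gene.

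At least 1.5-fold lower were 10 of the 45 genes, which is 22.2%, where 12.2% of all compared genes passed the same cut. None of the 45 was at least 1.5-fold higher, where 1.9% of all compared genes were. The 10 were EIF3B, EIF2S3, EIF2S2, EIF1AX, EIF4G1, EIF4EBP2, EIF3J, EIF4B, EIF2B4 and EIF1AD, spread over the eIF1, eIF2, eIF2B, eIF3 and eIF4 groups. No member was 2-fold apart on its brightest probe, where 1.34% of all compared genes were 2-fold lower and 0.459% were 2-fold higher. The count depends on how the samples are scaled to each other. After the trend of the difference on level was removed, 2 of 45 (EIF3B and EIF2S3) remained past 1.5-fold lower, or 4.44% against a background of 4.63%, and none was higher against 3.67%. When both samples were set to a common 75th percentile, 1 of 45 (EIF3B) remained lower, against 3.9% of all genes, and none was higher against 5.06%. With quantile normalization 3 of 45 (EIF3B, EIF2S3 and EIF2S2) remained lower, or 6.67% against 4.92%. Under these 3 scalings the share of members past the cut was thus near that of genes in general. With every probe taken on its own, as deposited, 14 of 60 probes were past the cut, or 23.3% against 11.9% of all compared probes.

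**Figure D1:**
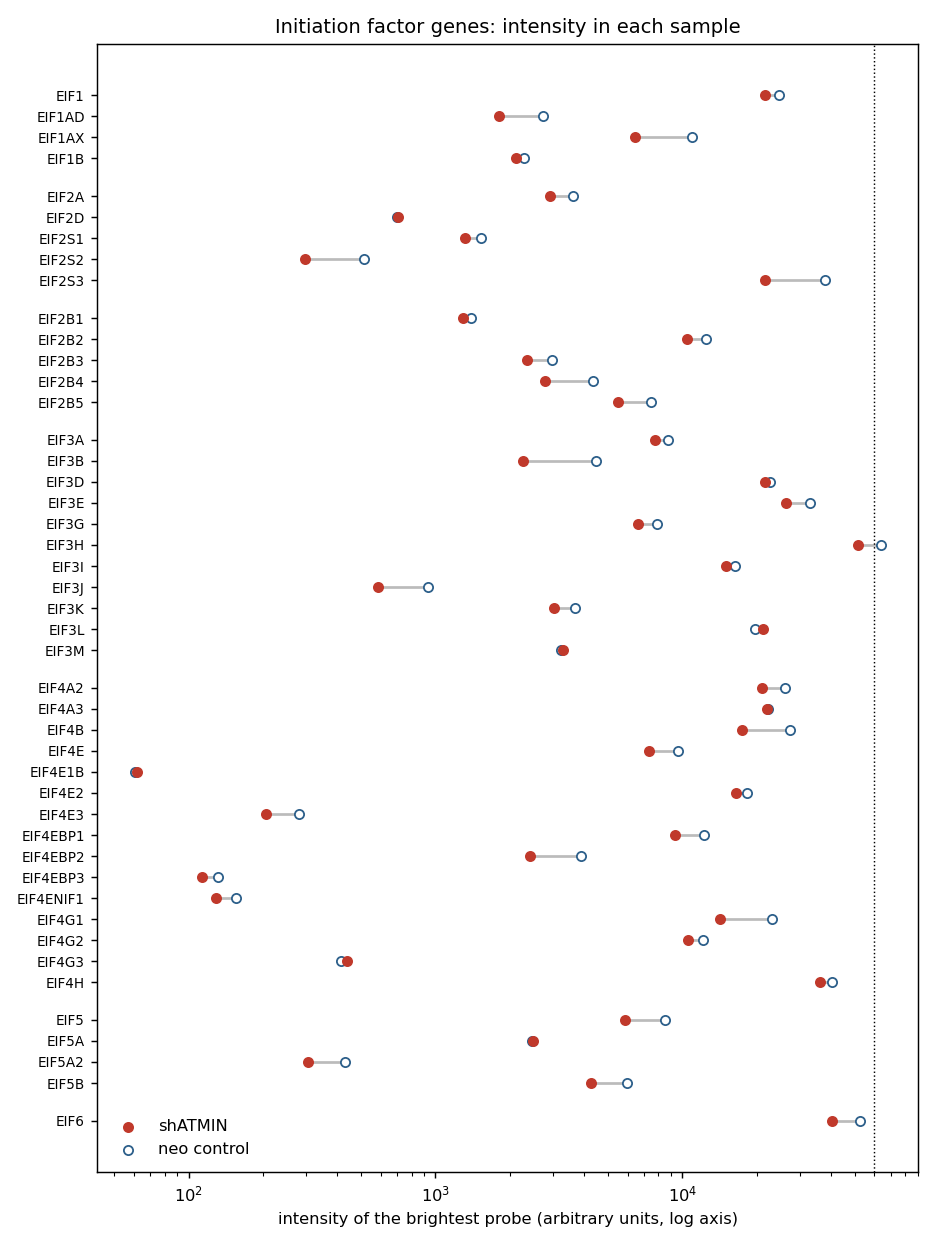
Intensity of the brightest probe (arbitrary units, log axis) of the 45 compared initiation factor genes in the shATMIN sample (filled) and the neo control (open), 1 sample each, grouped by factor. The filled point lies left of the open one in 39 genes. The dotted line marks 60000, which only EIF3H in the neo control passed.

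The start sites of the lowest members are shown as a description, and shared control of their promoters was not tested. The stretches are the 150 bases before the start site, from RefSeq (GRCh38.p14), for the 3 lowest members with a single start site in that table (EIF3B, EIF2S3 and EIF1AX), and for EIF3M, the highest such member with both intensities above 1000. EIF3B lies at chr7:2354677-2354826 (plus strand), EIF2S3 at chrX:24054806-24054955 (plus strand), EIF1AX at chrX:20141839-20141988 (minus strand) and EIF3M at chr11:32583681-32583830 (plus strand). Capitals mark matches, on either strand, to the GC box GGGCGG, the ETS motif CCGGAAG, the CCAAT box, the E-box CACGTG, the TATA box TATAAA and the cyclic AMP element TGACGTCA. No marked matches overlap each other.
EIF3B: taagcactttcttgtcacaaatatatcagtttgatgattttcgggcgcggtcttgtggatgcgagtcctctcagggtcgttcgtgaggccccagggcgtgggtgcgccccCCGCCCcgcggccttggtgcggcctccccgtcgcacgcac
EIF2S3: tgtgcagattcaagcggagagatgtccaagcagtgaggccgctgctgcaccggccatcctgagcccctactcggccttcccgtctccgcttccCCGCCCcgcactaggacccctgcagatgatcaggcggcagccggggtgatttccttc
EIF1AX: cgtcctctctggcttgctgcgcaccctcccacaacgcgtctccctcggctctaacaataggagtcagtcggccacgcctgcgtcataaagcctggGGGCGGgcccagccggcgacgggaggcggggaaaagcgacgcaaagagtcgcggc
EIF3M: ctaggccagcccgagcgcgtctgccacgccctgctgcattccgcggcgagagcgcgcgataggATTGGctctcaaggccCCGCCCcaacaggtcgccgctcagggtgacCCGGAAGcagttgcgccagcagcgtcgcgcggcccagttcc

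The GC box was the only one of these motifs in the 3 lowest genes, and EIF3M held it together with an ETS match and a CCAAT box. A GC box was present in 6 of 7 members that were at least 1.5-fold lower and had a single start site, in 18 of 29 compared members with one, and in 35.3% of 22114 such genes in the table. Among compared genes of the array the GC box was present in 59.7% of 7261. Of the same 7 low members, 1 held the E-box and 0 held the ETS motif, the CCAAT box, the TATA box or the cyclic AMP element. The E-box was in 6 of the 29 members and in 6.71% of compared genes, or 4.56% of all such genes. The ETS motif was in 4 of 29 and 13.6% of compared genes (7.28% of all), and the CCAAT box in 8 of 29 and 28.2% (24.6% of all). The TATA box was in 1 of 29 and 4.46% (7.66% of all), and the cyclic AMP element in 0 of 29 and 2.69% (1.56% of all). These matches are letters in the windows and show no binding.

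All 4 compared eIF1 genes were lower (median -0.39). EIF1AX, which encodes eIF1A, the partner of eIF1 in scanning, had an intensity of 6416 in the shATMIN sample and 10906 in the neo control, a difference of -0.77. EIF1AD, a protein with an eIF1A domain, read 1806 in the shATMIN sample and 2723 in the neo control, a difference of -0.59 that just passed the cut. EIF1, which guards start codon choice, lay close to the general shift. Its brightest probe read 21619 in the shATMIN sample and 24682 in the neo control (-0.19), and a second probe 1794 in shATMIN cells and 1696 in neo control cells (0.08). Its paralogue EIF1B stood at -0.11.

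The 3 subunits of eIF2 did not differ to the same extent. EIF2S2, the beta subunit, had an intensity of 297 in the shATMIN sample and 511 in the neo control, a difference of -0.78. EIF2S3, the gamma subunit that binds GTP, read 21711 in the shATMIN sample and 37859 in the neo control (-0.80) on its brightest probe. A second EIF2S3 probe read 8717 in shATMIN cells and 8941 in neo control cells, a difference of -0.04, so the size of the EIF2S3 difference rests on 1 of 2 probes. EIF2S1, the alpha subunit that the stress kinases phosphorylate, was at -0.21 and -0.18 on its 2 probes, near the general shift. EIF2A and EIF2D, which encode separate proteins that can deliver initiator tRNA and are no subunits of eIF2, stood at -0.30 and 0.01. A second EIF2A probe was at -0.55. For EIF2D the shATMIN sample read 707.5 and the neo control 701.

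All 5 genes of eIF2B, the exchange factor that returns eIF2 to its GTP form, were lower, with a median of -0.33. EIF2B4, the delta subunit, read 2788 in the shATMIN sample and 4350 in the neo control, a difference of -0.64. EIF2B5, the catalytic epsilon subunit, followed at -0.44 with 5472 in the shATMIN sample and 7431 in the neo control. EIF2B3 (-0.33), EIF2B2 (-0.25) and EIF2B1 (-0.11) were nearer to the shift of all genes. Each of the 5 had 1 probe.

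eIF3 had 12 member genes, of which 11 were compared, 9 of them lower, with a median of -0.25. EIF3B, a core scaffold subunit whose GC box is shown with the start sites, read 2263 in the shATMIN sample and 4458 in the neo control. Its difference of -0.98, or 1.97-fold, was the greatest of all compared members on their brightest probes (with the mean of its probes EIF4EBP2 stood at -0.99) and ranked 185 from the lowest among 12421 genes. EIF3J, a loosely attached subunit, read 588 in shATMIN cells and 930 in neo control cells (-0.66). The remaining subunits lay closer together. EIF3E (-0.31), EIF3H (-0.31), EIF3K (-0.29), EIF3G (-0.25), EIF3A (-0.16), EIF3I (-0.12) and EIF3D (-0.07) were lower, and EIF3M was at 0.02. EIF3L read 21229 in the shATMIN sample and 19787 in the neo control (0.10), but its other probe read 4045 in the shATMIN sample and 4807 in the neo control (-0.25), so its direction is not settled. EIF3H read 51539 in the shATMIN sample and 63886 in the neo control. The neo control value is over 60000, near the highest reading of that sample, 65510. The EIF3F probe read 10.5 in both samples, which is below the level required for comparison.

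The eIF4 group held 15 compared genes, 13 of them lower, with a median of -0.27. EIF4G1, the scaffold that joins the cap to the ribosome, had an intensity of 14230 in the shATMIN sample and 23078 in the neo control, a difference of -0.70. EIF4B, which stimulates the helicase eIF4A, read 17421 in shATMIN cells and 27291 in neo control cells (-0.65). EIF4E, the cap-binding protein, stood at -0.38 with 7351 in the shATMIN sample and 9578 in the neo control. Among the helicases EIF4A2 was at -0.30 on its brightest probe and 0.08 on another, and EIF4A3, a core protein of the exon junction complex, read 22016 in shATMIN cells and 22303 in neo control cells (-0.02). The other scaffolds were EIF4G2 at -0.19 and -0.48 on its 2 probes and EIF4G3 at 0.08. EIF4H, a further helicase cofactor, was at -0.16 on its brightest probe and 0.20 on the other.

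Of the proteins that bind eIF4E and block cap-dependent initiation, EIF4EBP2 was lower on both probes. It read 2416 in the shATMIN sample and 3893 in the neo control on the brightest probe (-0.69), and 897 in the shATMIN sample and 2202 in the neo control on the second (-1.29). It was the only one of the 10 genes with a second compared probe past 1.5-fold, since 8 of the 10 had a single compared probe and the second EIF2S3 probe did not pass. EIF4EBP1 read 9344 in shATMIN cells and 12189 in neo control cells, a difference of -0.38 like that of EIF4E, and EIF4EBP3 stood at -0.22. The transporter and repressor EIF4ENIF1 was at -0.27. Of the other cap-binding relatives, EIF4E3 was at -0.43, EIF4E2 at -0.15 and the dim EIF4E1B at 0.02.

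In the eIF5 group 3 of 4 compared genes were lower, with a median of -0.50. EIF5, the protein that triggers GTP hydrolysis by eIF2, read 5861 in the shATMIN sample and 8535 in the neo control (-0.54). A second EIF5 probe gave -0.59, and the dimmest gave 0.13 with 159 in the shATMIN sample and 145 in the neo control. EIF5B, which joins the large subunit, stood at -0.49 with 4263 in shATMIN cells and 5990 in neo control cells. EIF5A, a hypusine-bearing factor that also helps elongation, did not show this difference. Its brightest probe read 2484 in the shATMIN sample and 2457 in the neo control (0.02). A dimmer EIF5A probe read 106 in the shATMIN sample and 90.5 in the neo control (0.23). The EIF5A paralogue EIF5A2 read 303 in the shATMIN sample and 432 in the neo control (-0.51). EIF5AL1 was dim in both samples, at 5.50. EIF6, which keeps the large subunit apart until it is released for initiation, had 3 probes that were all lower. The probes read 40325 in shATMIN cells and 52442 in neo control cells (-0.38), 7845 in the shATMIN sample and 11953 in the neo control (-0.61), and 5623 in shATMIN cells and 8739 in neo control cells (-0.64).

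**Figure D2:**
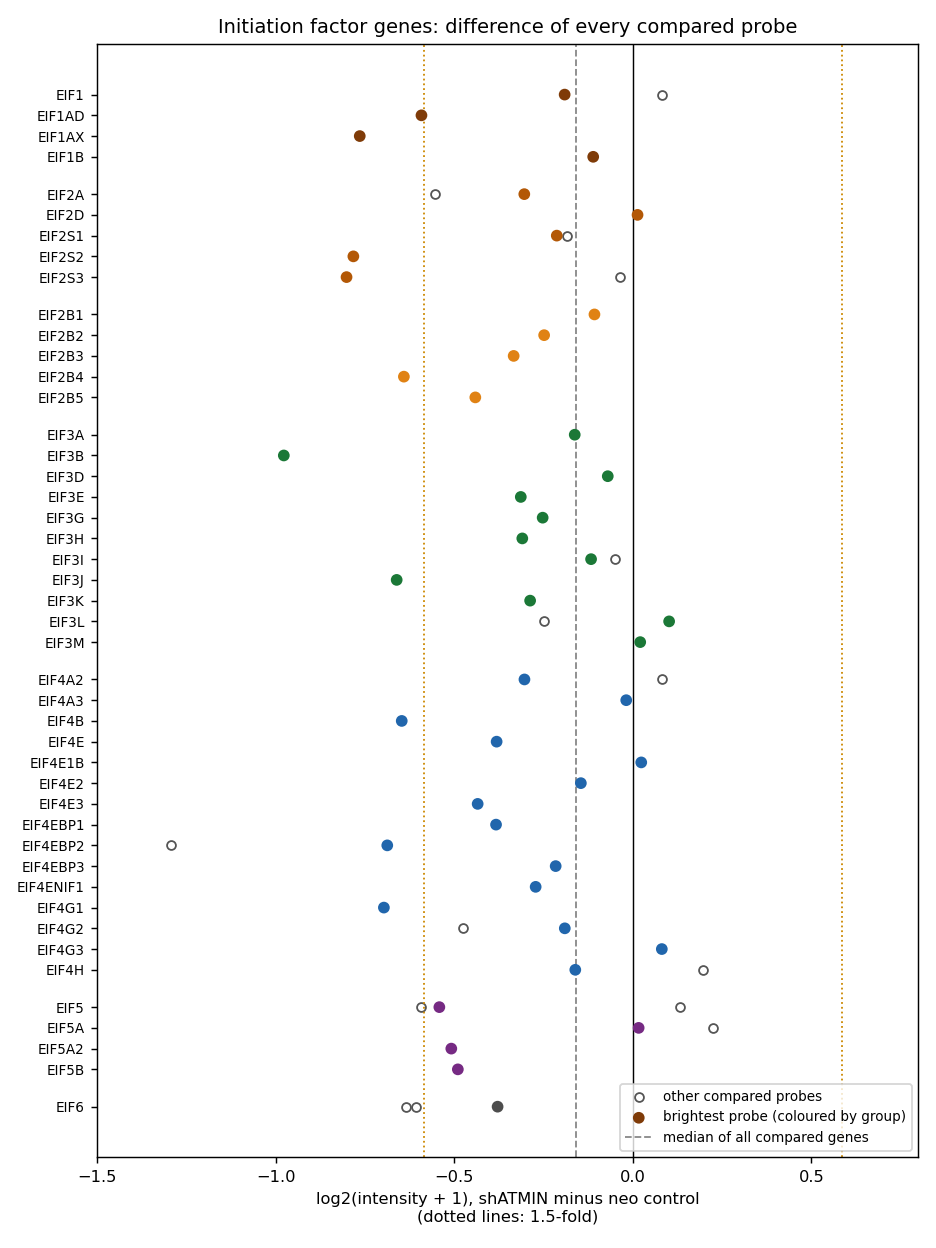
Log2 difference, shATMIN minus neo control, of every compared probe, with the brightest probe of each gene filled and coloured by group and its other probes open. Dotted lines mark 1.5-fold and the dashed line the median of all compared genes at -0.16. Of the genes with several compared probes, EIF2A, EIF2S1, EIF4EBP2, EIF4G2 and EIF6 lie left of the dashed line on every one, while the EIF2S3 and EIF5 probes lie apart.

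Several probes of a gene gave one sign in 8 of the 13 members that had more than 1 compared probe, or 61.5%, and in 62.8% of the 2973 such genes on the array. The SD between probes of one gene was 0.34 over those genes. Differences of single initiation factor genes smaller than that are not distinguishable from disagreement between probes. Larger ones can arise from it too, and 0.34 does not measure the spread between samples, so it is no limit of detection. The 10 genes above and EIF5, EIF5A2, EIF5B, EIF2B5, EIF4E3, EIF4EBP1, EIF4E and EIF6 lay beyond it. Such sizes were frequent on the array, since 28.9% of all compared genes were at or below -0.35, where 40% of the members were. Among the genes just named the probes of EIF2S3, EIF5 and EIF4EBP2 lay up to 0.77, 0.73 and 0.61 apart, and those of EIF6 up to 0.26. The differences of all these genes include the shift of the whole array. With the level trend removed, these 8 added genes (EIF5 the lowest at -0.33 and EIF4E the highest at -0.18) and EIF1AD (-0.32) lay within 0.34, and the other 9 genes stayed beyond it. At or below -0.35 were then 20% of the members and 14.1% of all compared genes.

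For intensities under 1000 the pair of readings behind each deposited mean could be recovered. The sources used here do not say whether the pair stands for the 2 arrays listed for each sample. Of 9 members with such a brightest probe, the pairs of the groups did not overlap in 6, or 66.7%, where 69.4% of the 7512 compared genes with such pairs did not overlap. Such a separation was therefore the common case on the array. EIF2S2 read 295 and 298 in the shATMIN sample, against 485 and 537 in the neo control. EIF3J read 586 and 589 in the shATMIN sample, against 924 and 936 in the neo control. EIF5A2 had 284 and 322 in the shATMIN sample and 397 and 466 in the neo control, and EIF4E3 had 206 and 207 in shATMIN cells and 279 and 280 in neo control cells. For these 4 genes the groups lay further apart than the readings within either pair. That is a stricter rule than no overlap, and its share over all genes was not counted. The remaining 2 were closer: EIF4EBP3 had 112 and 115 in the shATMIN sample and 121 and 143 in the neo control, and EIF4ENIF1 had 128 and 130 in the shATMIN sample and 147 and 165 in the neo control. In both, the gap between the groups was smaller than that within the neo control pair. The pairs overlapped for EIF2D, EIF4G3 and EIF4E1B, all of which had differences near 0. No label ties the readings of a pair to separate cultures or clones.

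Over the whole array the difference varied with the level of the gene. Below a log2 level of 8 the median of all compared genes was -0.05, between 8 and 10 it was -0.23, between 10 and 12 it was -0.26, between 12 and 14 it was -0.19, and above 14 it was -0.15. The members lay mostly in the brighter part. Of 13 members above 14, 12 were lower where 82.0% of all genes at that level were, with a median of -0.30, and 3 (EIF2S3, EIF4G1 and EIF4B) were at least 1.5-fold lower, where 3.28% of the 427 genes at that level were. Of 11 members between 12 and 14 all were lower where 79.6% of all genes were, with a median of -0.38, and 1 of the 11 (EIF1AX) passed the cut, where 9.30% of 1409 genes did. Of 12 members between 10 and 12 the median was -0.30, 10 were lower where 80.2% of all genes at that level were, and 4 passed the cut, where 18.5% did. Of 5 members between 8 and 10, 3 were lower where 74.7% of all genes were, and 2 passed the cut, where 15.7% did. None of the 4 dimmest members passed it, where 7.05% of the 4240 genes below a level of 8 did. After the trend was removed, the median of the 45 was -0.15 and 30 were lower, where the median of all genes was 0.01 and 48.5% were lower. EIF3B then stood at -0.73, EIF2S3 at -0.66, EIF2S2 at -0.57, EIF1AX at -0.56 and EIF4G1 at -0.53. By group the medians were then -0.29 for eIF5, -0.26 for the single eIF6 gene, -0.18 for eIF1, -0.16 for eIF4, -0.07 for eIF2B, -0.05 for eIF2 and -0.04 for eIF3. On the brightest probes the eIF2 group median hides a split, since EIF2S2 (-0.57) and EIF2S3 (-0.66) lay below the trend and EIF2S1 (0.07) did not. The second EIF2S3 probe was at -0.04 where the trend at its level was -0.20. The place of EIF2S3 in this split is therefore not settled.

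**Figure D3:**
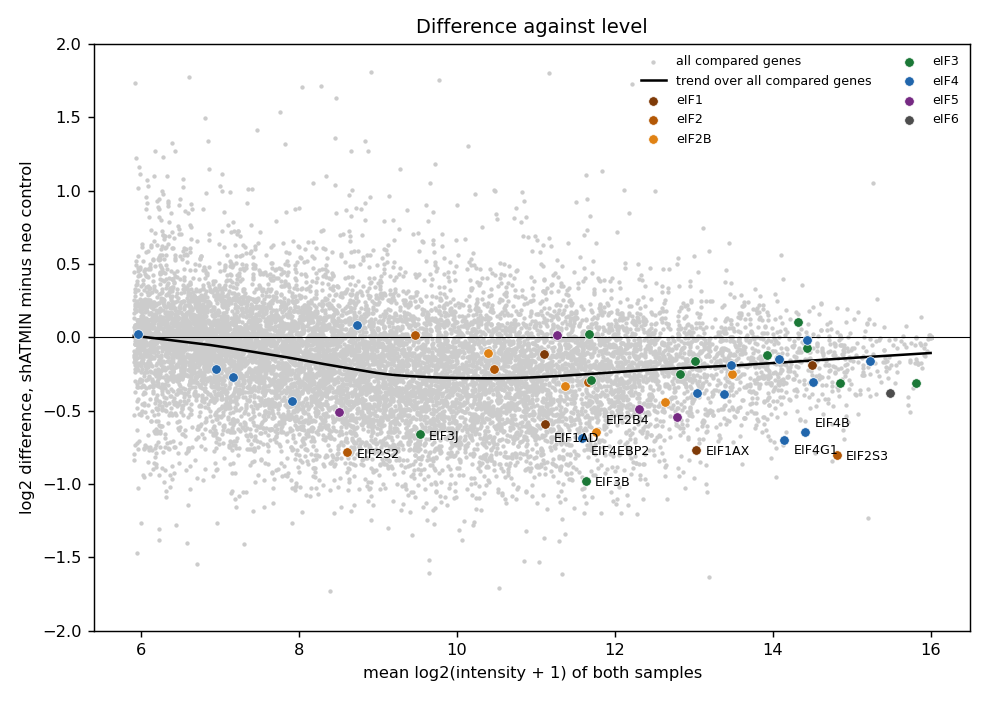
Log2 difference, shATMIN minus neo control, against mean log2 level for all 12421 compared genes (grey, those beyond 2 not drawn) with their trend (black line) and the 45 initiation factor genes (coloured by group). The 10 named genes are those at least 1.5-fold lower, and 30 of the 45 members lie under the trend line.

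**Figure D4:**
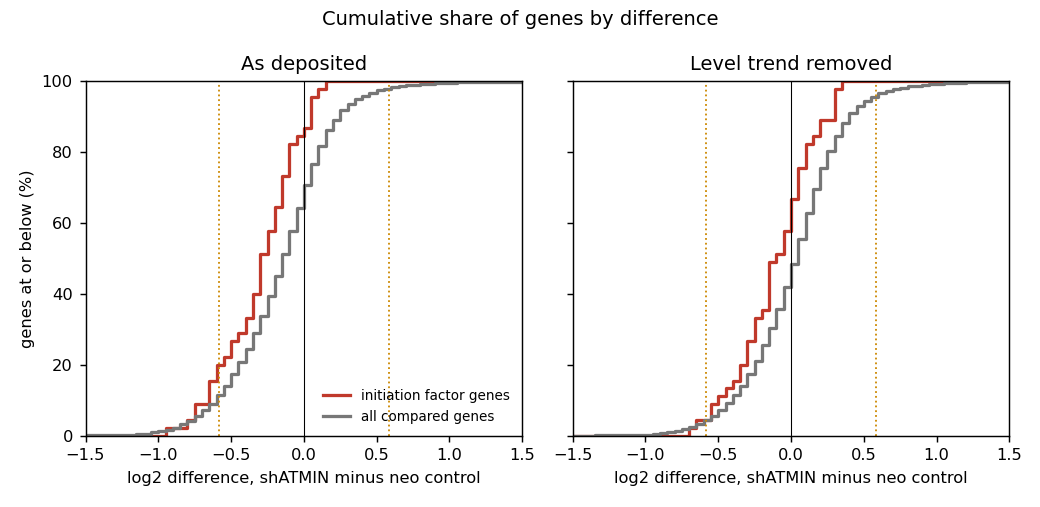
Share of genes (%) at or below each log2 difference, shATMIN minus neo control, for the 45 initiation factor genes and all 12421 compared genes, as deposited (left) and with the level trend removed (right). Dotted lines mark 1.5-fold. The curve of the members crosses 0 at 86.7% on the left and 66.7% on the right, against 70.7% and 48.5% for all genes.

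Other genes of translation were read from 6 lists. A negative sign was the common case, at 70.7% of all compared genes. All 4 eIF2 kinases were lower, namely EIF2AK4 (GCN2) at -0.57, EIF2AK3 (PERK) at -0.53, EIF2AK1 at -0.52 and EIF2AK2 (PKR) at -0.39. After trend removal these kinases stood at -0.30, -0.25, -0.26 and -0.15 in that order, each within the SD between probes of 0.34. In their list, which also holds the subunits of the phosphatase that reverses them, 8 of 9 genes were lower, with a median of -0.39. PPP1CB, a catalytic subunit, was at -0.68 and -1.02 on its 2 probes, and at -0.42 on the brightest with the level trend removed. PPP1R15A, the stress-induced regulatory subunit (GADD34), was higher at 0.40, with 342 in the shATMIN sample and 259 in the neo control. It stood at 0.57 with the level trend removed.

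Genes of mTORC1 and of the MNK kinases, which control eIF4F, had 12 of 14 lower and a median of -0.18, close to that of all genes. MTOR was at -0.67, with 1463 in the shATMIN sample and 2330 in the neo control, and at -0.40 with the level trend removed. TSC2 and RHEB stood at -0.44 and -0.42. Cap, poly(A) and other initiation proteins had 15 of 16 compared genes lower, with a median of -0.48, and 5 at least 1.5-fold lower, where 12.2% of all compared genes were. They included the RNA helicase DHX9 at -0.86, the poly(A)-binding protein PABPC4 at -0.80 and LARP4 at -0.75, whose other probes gave -0.03 and -0.13. Another of the 5, the helicase DDX3X, was at -0.67 on its brightest probe and 0.78 on its other one. With the level trend removed only DHX9 (-0.64) of these 5 stayed past the cut, where 4.63% of all compared genes were past it.

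In the list of elongation factors and related genes 10 of 11 were lower, beside 70.7% of all compared genes. The median was -0.30 and none was 1.5-fold apart. Over the array 12.2% of genes passed that cut downward and 1.9% upward. With only 11 genes, 0 past the cut does not set this list apart from the array. EEF1A2 stood at -0.48, EEF2 at -0.40 and EEF1AKMT1 at -0.39. The remaining one, TPT1, read 65510 in both samples, the top of the scale, so its sign cannot be read. Termination had 3 compared genes. The release factor genes GSPT1 (-0.94, and -1.10 on a second probe) and ETF1 (-0.68) were at least 1.5-fold lower, where 12.2% of all compared genes were, and PELO was at -0.14. With the level trend removed GSPT1 (-0.71) stayed past the cut and ETF1 (-0.49) did not, where 4.63% of all compared genes were past it. The hypusine enzymes DOHH and DHPS, which modify eIF5A, were at -0.41 and -0.31. With the level trend removed the list medians were -0.15 for the eIF2 kinases and phosphatase, 0.01 for mTORC1 and MNK, -0.22 for the cap and poly(A) proteins, -0.08 for elongation, -0.49 for termination and -0.10 for the hypusine enzymes.

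**Figure D5:**
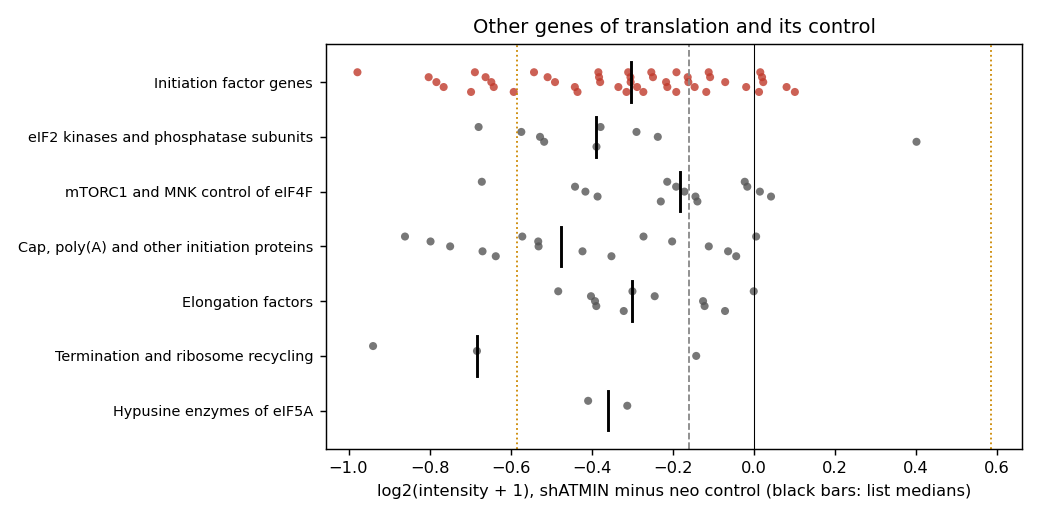
Log2 difference, shATMIN minus neo control, of the compared genes of each list (points, 1 brightest probe per gene), with list medians as black bars, the median of all compared genes as a dashed line and 1.5-fold as dotted lines. The list medians lie between -0.18 and -0.68, and PPP1R15A is the point at 0.40.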

How the data were processed

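The deposited values are intensities on a linear scale, 1 per probe and sample. Some lie below 0 (41 in the shATMIN sample and 46 in the neo control), as background-subtracted signals can. The sources used here state neither how the 2 listed arrays were combined nor any normalization by the authors. The number of unassigned columns was 0. Negative intensities became 0, and log2(intensity + 1) was taken, which understates the differences of dim genes. Older symbols were updated through a RefSeq gene table (GRCh38.p14). The annotation gave 1 gene for 24740 of the 31741 probes, more than 1 for 977 and no gene for 6024. A gene was its brightest probe, and differences are the shATMIN value minus that of the neo control. Sizes of 1.5-fold and 2-fold were counted over all compared genes. The trend on level was a loess curve with span 0.3. Named were members past 1.5-fold, over 60000 or with discordant probes, and the ends of each group; further members and second probes were named after their values were seen. Pairs of readings were recovered as whole numbers times 1 of 2 factors per sample, within a tolerance of 0.0001, for 100% of values under 100. A wrong factor resolved 12.8% in the shATMIN sample and 11.8% in the neo control, and from 100 to 1000 it resolved 12.0% in the shATMIN sample and 18.1% in the neo control. The members and gene lists were chosen with earlier results of these data known. The calculation was tested on simulated data. Python 3.11.15, pandas 2.3.3, NumPy 2.4.6, statsmodels 0.14.6 and matplotlib 3.10.9 were used.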

Additional observations from a re-analysis of the deposited data

How the results depend on the processing

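No paired analysis was possible because each group has 1 sample. The count of 10 genes at least 1.5-fold lower was 1 with scaling to the 75th percentile, where 3.9% of all genes passed. It was 3 with quantile normalization (EIF3B, EIF2S3 and EIF2S2, where 4.92% passed) and 2 with the level trend removed (4.63%). At 2-fold it was 0, where 1.34% of all genes were lower. With every probe on its own it was 14 of 60 probes (11.9% of all compared probes). With a pseudocount of 16 it was 10 of 45 (11.1% of all genes), and with no dim filter 10 of 47 (9.18%). A filter at the 60th percentile gave 10 of 42 (14.4%), and the mean of the probes gave 9 of 45 (10.3%). Leaving out EIF3H gave 10 of 44 and updated symbols gave 10 of 45, both beside 12.2% of all genes. No member was 1.5-fold higher under any of these. The median of -0.30 became -0.070, -0.14 and -0.15 with the 75th percentile, quantile normalization and trend removal. The 75th percentile adds 0.23 to nearly every difference by construction. The group medians then were -0.16 for eIF1, -0.071 for eIF2, -0.10 for eIF2B, -0.019 for eIF3, -0.040 for eIF4 and -0.27 for eIF5. With quantile normalization they were -0.18 for eIF1, -0.051 for eIF2, -0.082 for eIF2B, -0.030 for eIF3 and -0.155 for eIF4, and with the trend removed -0.054 for eIF2, -0.073 for eIF2B, -0.039 for eIF3 and -0.16 for eIF4. All these medians stayed below 0. Of 401 values of single genes under the alternatives, 400 moved by less than the SD between probes of 0.34. The exception was EIF2S3 at -0.42 with the mean of its 2 probes. This was largely fixed by the settings, since several leave single values unchanged and the 75th percentile adds only 0.23. It does not show that the calls were stable, as the count fell from 10 to between 1 and 3 under the 3 scalings. EIF3B was past 1.5-fold in all 9 alternatives that give 1 value per gene. Dim probes and values near the top of the scale limit the precision.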

Other observations

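Probes that name an initiation factor together with a near-identical or overlapping gene were not members. The brighter probe shared by EIF3C and EIF3CL read 7277 in the shATMIN sample and 9435 in the neo control (-0.37), and the dimmer one 209 in shATMIN cells and 191 in neo control cells (0.13). The brighter probe shared by EIF4A1, the main helicase of cap-dependent initiation, and its readthrough with SENP3 read 13257 in the shATMIN sample and 16872 in the neo control (-0.35). The readthrough of ANKHD1 and EIF4EBP3 read 111 in shATMIN cells and 186 in neo control cells (-0.73), where the EIF4EBP3 probe itself read 114 in shATMIN cells and 132 in neo control cells. The pseudogene EIF3IP1 read 286 in shATMIN cells and 290.5 in neo control cells (-0.02).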
